A study of Drosophila melanogaster with 9 samples.

Results

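The genes of the proteasome were taken from the gene table of OSCs by name, as every symbol that starts with Prosalpha, Prosbeta, ProsMA or Pros and a digit, or with Rpn or Rpt and a digit. Of 8335 genes listed, 35 met this rule. They comprise 32 canonical subunit genes, namely 7 of the alpha ring, 7 of the beta ring, 6 of the ATPase ring (Rpt1 to Rpt6) and 12 non-ATPase subunits of the regulatory particle (Rpn), and 3 copies of canonical genes (Prosbeta2R2, Rpt3R and Rpt6R). A further lid subunit, Sem1, has a name outside the rule and is given separately. Another 13 annotated copies with fitting names were not found under these names. A copy of Prosalpha1 that is listed as CG30382 is given with that gene.

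OSCs are somatic cells of the Drosophila ovary that grow in culture and keep many features of follicle cells. They were grown at 27°C and transfected with an siRNA against tsu, the gene of Y14 in the exon junction complex (EJC) core, against Acn, whose product Acinus belongs to the EJC-bound ASAP complex, or against GFP as the control, and all groups received the same transfections. PolyA-selected RNA of 2 biological replicates per group was sequenced, and the 3 rRNA-depleted libraries of the study were not analysed here. The siRNAs left some target transcript, with tsu at 9.77 and 9.16 RPKM in siTSU cells against 128 and 112 RPKM in siGFP cells, and Acn at 16.8 and 16.5 RPKM in siAcn cells against 98.1 and 140.4 RPKM in siGFP cells.

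The proteasome degrades proteins that carry ubiquitin chains. Its core particle is a barrel in which outer rings of alpha subunits gate the entry and inner rings of beta subunits cut the substrate, and only the beta1, beta2 and beta5 subunits are proteases. The regulatory particle that caps the barrel has a base, whose ATPases unfold substrates, and a lid, whose Rpn11 removes ubiquitin, while Rpn1, Rpn10 and Rpn13 bind it. Subunits are assembled in fixed proportions, and in flies several positions have a second gene, a copy that is known mainly from the male germline.

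The reads behind the RPKM scale, recovered from the step between intron values, numbered 15.9 and 11.5 M in siTSU, 18.7 and 13.4 M in siAcn and 28.8 and 30.4 M in siGFP libraries. All 6 OSC and follicle cell markers (tj, piwi, fs(1)Yb, zfh1, Fas3 and armi) were present, at 67.9 to 529.6 RPKM in siGFP cells. Their summed level was 694 to 992 RPKM in siTSU, 1085 to 1475 RPKM in siAcn and 1544 to 1879 RPKM in siGFP libraries, and piwi and zfh1 passed the test as lower after tsu knockdown. Of 6 germline markers, 4 were listed, with sums of 4.81 to 6.71, 5.56 to 7.49 and 3.86 to 4.12 RPKM in the same order of groups, and 2 of 4 hemocyte and 1 of 4 muscle markers were listed, each at no more than 3.29 RPKM in any group mean. None of 4 fat body and none of 6 testis markers was among the genes analysed. The study itself reports that piwi RNA falls and an intron of piwi is retained in both knockdowns, so that piwi is not a marker of cell type alone here. Whether the shift in marker levels has a part in the results below was not tested.

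Most proteasome transcripts were abundant in control cells. In siGFP cells, 30 of the 32 canonical subunit genes exceeded 90 RPKM, and all but Prosalpha1 and Rpn1 stood above the 90.6th percentile of the listed genes. RPKM is scaled to transcript length, so that genes can be set side by side. The median over the 35 genes was 154 RPKM in siTSU, 150.4 RPKM in siAcn and 162 RPKM in siGFP cells. Together these genes held 1.04% and 0.978% of the summed gene RPKM in siTSU, 1.08% and 0.986% in siAcn and 1.09% and 1.04% in siGFP libraries. Both siTSU shares lay just below both siGFP shares, while siAcn and siGFP shares overlapped. Between genes, the canonical levels had a coefficient of variation of 34.7% in siTSU, 31.9% in siAcn and 31.8% in siGFP cells, where they ran from 33.3 to 305 RPKM. In siGFP cells this coefficient was 24.9% for CCT chaperonin, 18.4% for COP9 signalosome and 52.9% for cytosolic ribosomal protein genes.

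**Figure D1:**
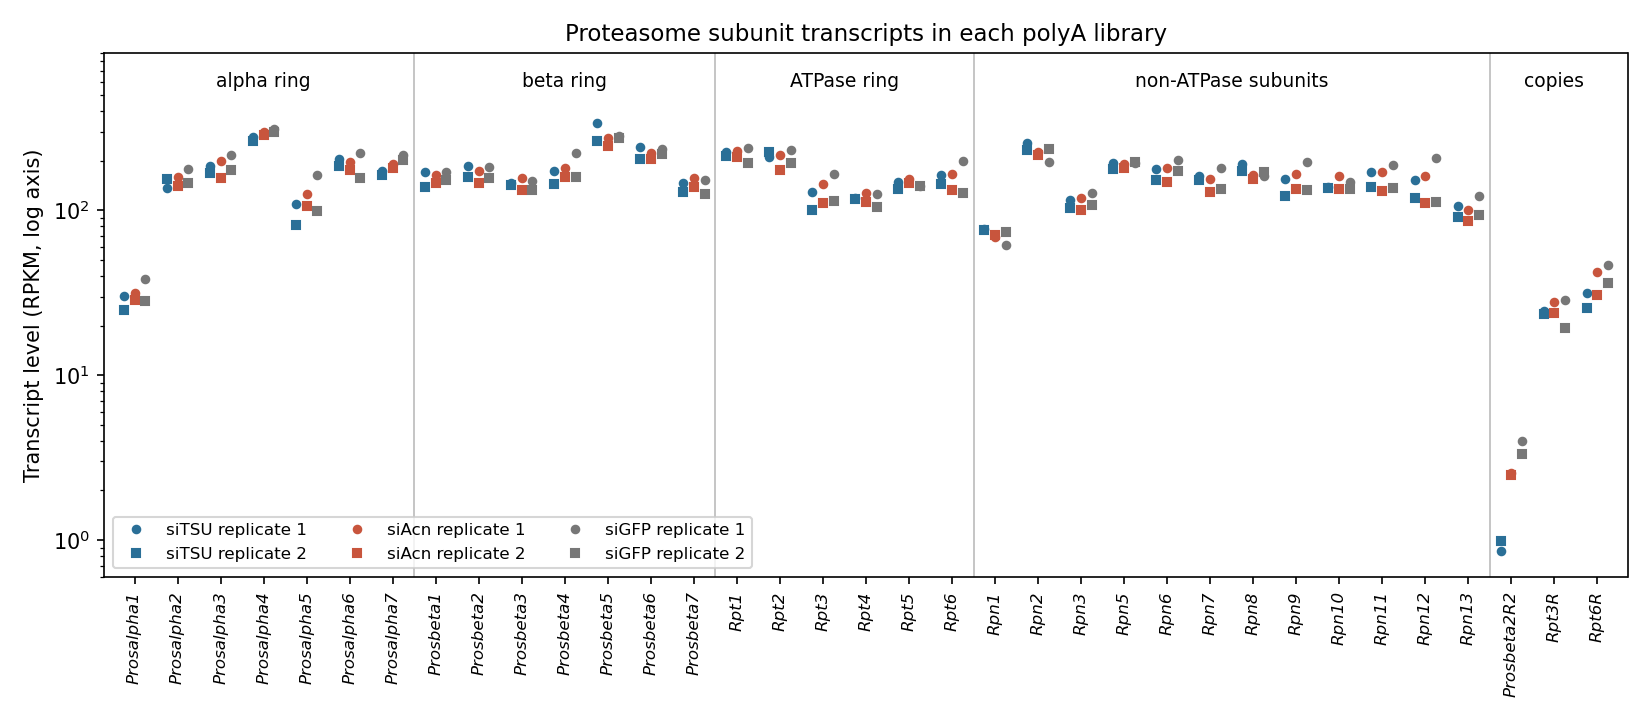
Transcript level (RPKM, log axis) of the 35 proteasome genes in the 6 polyA libraries, with 1 point per library (circle, replicate 1; square, replicate 2), grouped by place in the complex. Canonical genes other than Prosalpha1 and Rpn1 form a band above 80 RPKM, and the 3 copies lie below 50 RPKM, with Prosbeta2R2 below 5 RPKM.

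The order of the levels was led by Prosalpha4, an alpha ring subunit, at 305 ± 8.47 RPKM in siGFP cells (SD, n = 2), then Prosbeta5 at 277 ± 5.35 RPKM and Prosbeta6 at 227 ± 10.3 RPKM (SD, n = 2 each). Among the 34 pairs of neighbours in this order, only 5 had siGFP libraries that did not overlap. They were Prosalpha4 above Prosbeta5, Prosbeta5 above Prosbeta6, Rpn13 above Rpn1, Rpn1 above Rpt6R and Rpt3R above Prosbeta2R2. From Prosbeta6 down to Rpn13 neighbouring genes overlapped, while genes further apart, such as Prosbeta6 at 235 and 220.0 RPKM and Rpn13 at 123 and 93.4 RPKM, did not overlap. The order was much the same in the knockdowns, with a rank correlation over the 35 genes of 0.965 for siTSU and 0.974 for siAcn against siGFP cells, a description over genes that share libraries and lengths.

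The proteasome genes also differed between replicates in a shared direction. Replicate 1 was higher than replicate 2 for 32 of 35 genes in siTSU, 34 in siAcn and 30 in siGFP cells, with median log2 differences of 0.15, 0.18 and 0.27 in that order, against 0.03, 0.05 and 0.08 over all genes tested. The widest gap belonged to Rpn12, a lid subunit, at 207 and 112 RPKM in the siGFP libraries. The differences between groups described below have to be read against this spread. The labels do not say that equal replicate numbers share a culture or a day.

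To ask whether EJC loss alters the proteasome transcripts, limma was run on log2(RPKM + 1) of the 7362 genes that averaged 1 RPKM or more, and all 35 proteasome genes passed this filter, Prosbeta2R2 through its siAcn and siGFP libraries. After tsu knockdown, 1 proteasome gene fell, the copy Prosbeta2R2, and none rose, where 3.68% of all genes tested were called and 2.46% were lower (90 higher and 181 lower, or 113 and 144 with libraries centred on their medians). After Acn knockdown no proteasome gene was called, where 0.0679% of all genes were and 0.0136% were lower. Between siTSU and siAcn cells none was called either, where 1.01% of all genes were and 0.638% were lower. At an unadjusted p under 0.05, limma listed 2 proteasome genes after tsu knockdown (24.4% of all genes), 0 after Acn knockdown (7.61%) and 1 between siTSU and siAcn cells (14.8%).

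The changes of the canonical subunits were small. After tsu knockdown, 27 of 32 lay within 0.25 of 0 on the log2 scale, or 84.4%, against 51.5% of all genes tested, and their changes ran from -0.43 to 0.18 with an SD of 0.15, against an SD of 0.51 over all genes. After Acn knockdown all 32 lay within 0.25, against 72.3% of all genes, and they ran from -0.20 to 0.11 with an SD of 0.09, against 0.33. All genes include many of lower level, and whether level has a part in this difference was not tested. A narrow spread was not particular to the proteasome. Within 0.25 after tsu knockdown lay 87.5% of the 8 CCT chaperonin genes (SD 0.07), 75% of the 8 COP9 signalosome genes and 73.6% of the 87 cytosolic ribosomal protein genes. After Acn knockdown the shares were 100%, 75% and 90.8% in that order. As ratios of mean RPKM, the canonical genes were 0.723 to 1.13 in siTSU and 0.853 to 1.08 in siAcn cells, relative to siGFP cells. The median standard error of a single proteasome gene was 0.17. A change of this size in a single gene was not separable from 0 in this fit, which had 2 libraries per group and no term for the replicate number.

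**Figure D2:**
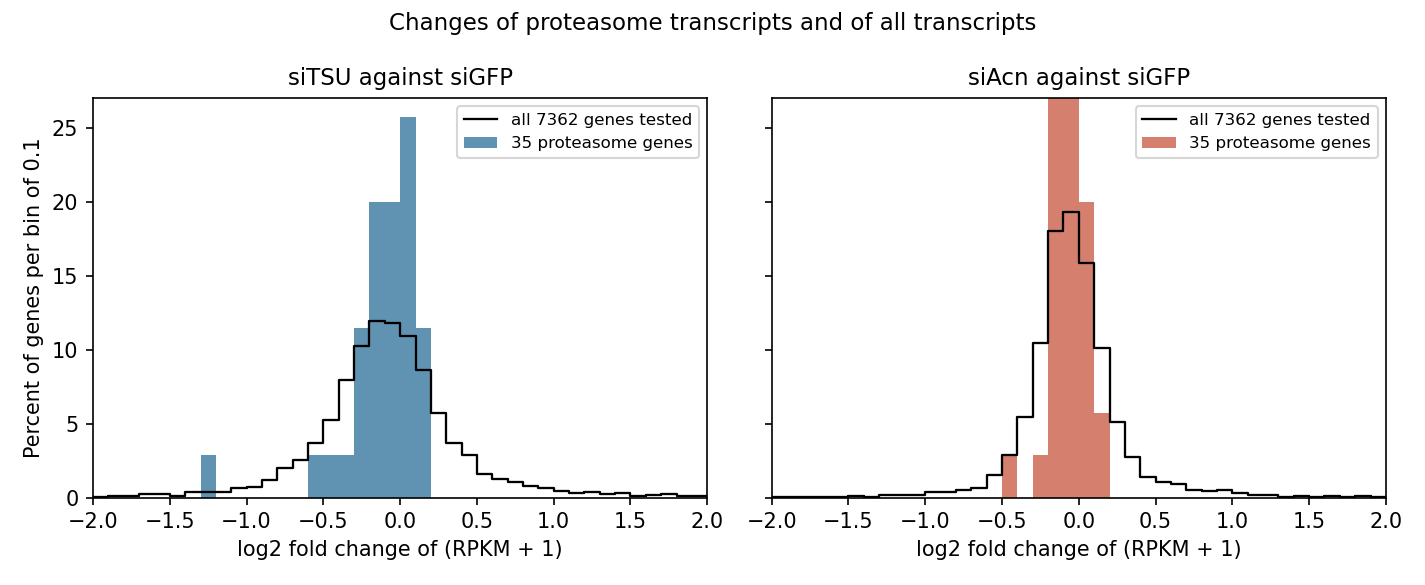
Distribution of log2 changes of (RPKM + 1) in siTSU (left) and siAcn (right) against siGFP cells, as percent of genes per bin of 0.1, for the 35 proteasome genes (bars) and all 7362 genes tested (line). Most bars stand near 0 in both panels, and the bar between -1.3 and -1.2 after tsu knockdown is Prosbeta2R2.

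The median change over the 35 genes was -0.06 after tsu knockdown, against -0.09 over all genes, and -0.10 after Acn knockdown, against -0.05. Both comparisons use the same siGFP libraries. The sign and size of these medians moved with the scaling and with single libraries. The tsu median was 0.03 with libraries centred on their medians and -0.02 after quantile normalization, and the Acn median was -0.05 and -0.03. Without siGFP replicate 1 they became 0.04 and 0.03, and without siGFP replicate 2 -0.20 and -0.22. The tsu median was -0.14 without siTSU replicate 1 and -0.00 without siTSU replicate 2, and the Acn median was -0.20 without siAcn replicate 1 and 0.02 without siAcn replicate 2. In siTSU against siAcn cells the median was -0.00, with 17 genes above and 18 below 0.

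Groups of libraries rarely separated. Both siTSU libraries lay below both siGFP libraries for 5 proteasome genes (Prosalpha4, Prosalpha7, Prosbeta2R2, Rpn5 and Rpt6R), or 5 of 35 where 35.2% of all genes tested did so, and above both for 2 (Rpn1 and Rpn8), where 20% of all genes did so. Both siAcn libraries lay below both siGFP libraries for 5 (Prosalpha4, Prosalpha7, Prosbeta2R2, Prosbeta5 and Rpn5), where 20.8% of all genes did, and above both for Rpt5, where 11.8% did.

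**Figure D3:**
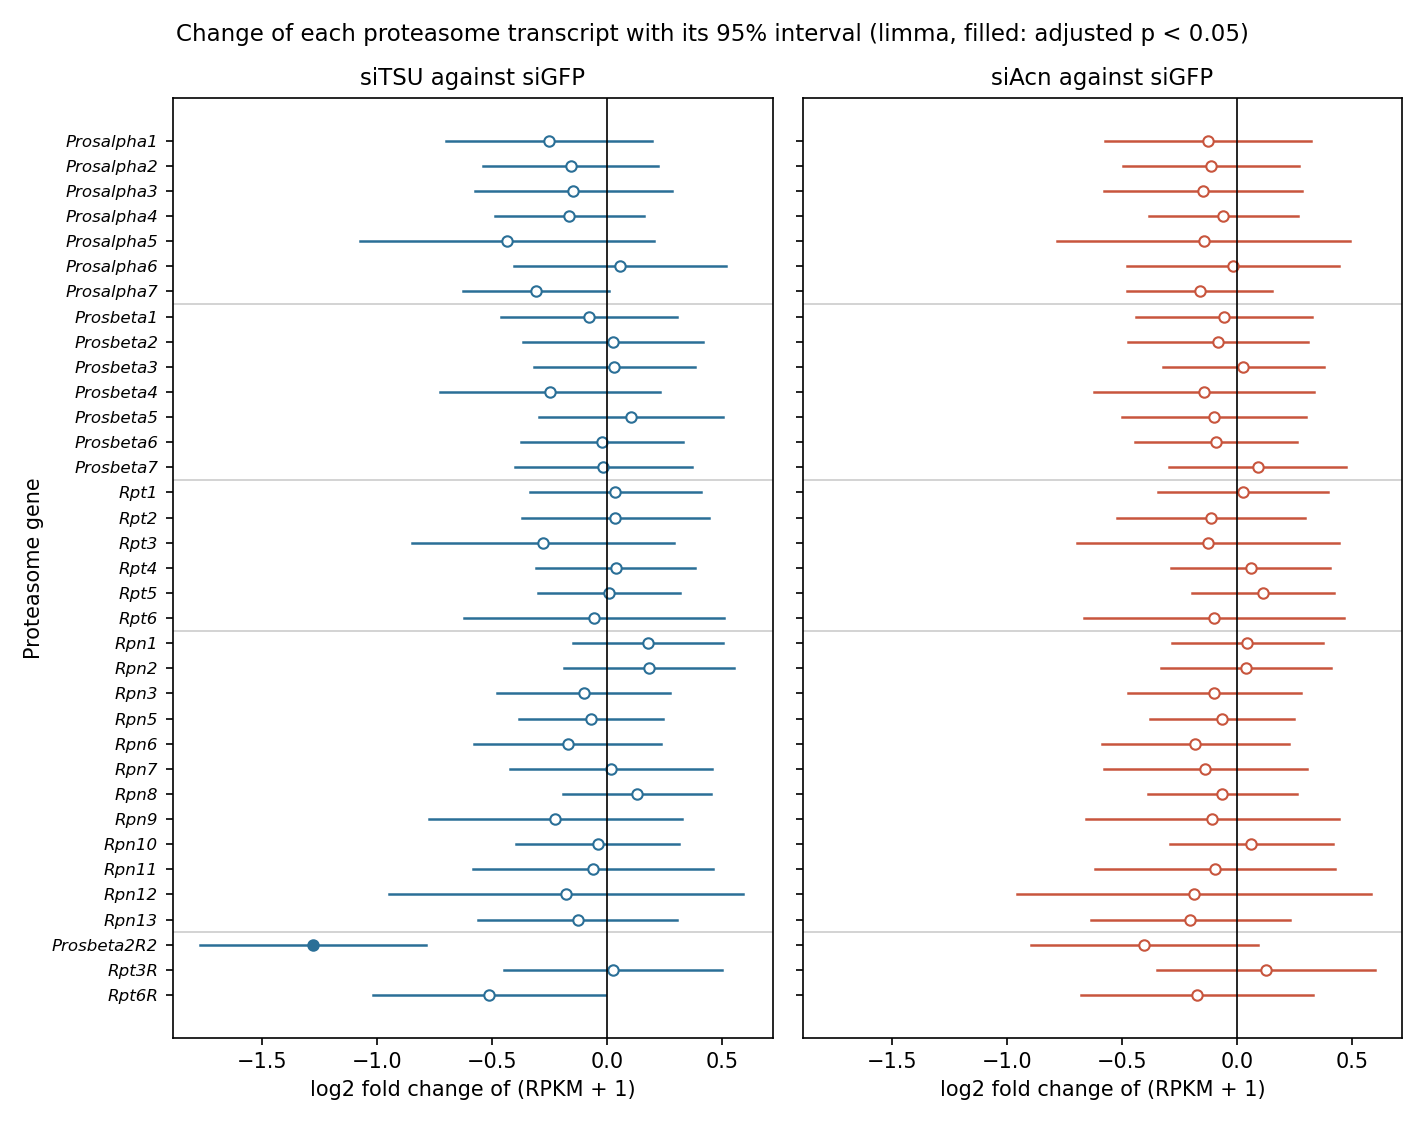
Log2 fold change of (RPKM + 1) of each proteasome gene with its 95% interval in siTSU (left) and siAcn (right) against siGFP cells, ordered by place in the complex, with filled points for an adjusted p under 0.05. Prosbeta2R2 after tsu knockdown is the only filled point, at -1.28, and the only other interval that leaves out 0 is that of Rpt6R in the same panel.

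The 7 alpha ring genes had a median change of -0.16 after tsu knockdown and -0.13 after Acn knockdown, and 0 passed the test in either direction. Prosalpha4, the highest of all, had 279 and 265 RPKM in siTSU, 299 and 286 RPKM in siAcn and 311 and 299 RPKM in siGFP libraries. Its siGFP libraries were the highest and did not overlap either knockdown, but the difference of siTSU from siGFP cells, at -0.16 on the log2 scale (95% interval -0.49 to 0.16), did not pass the test (limma adjusted p = 0.488). Prosalpha7 showed the same order, with 174 and 163 RPKM in siTSU, 192 and 181 RPKM in siAcn and 215 and 202 RPKM in siGFP libraries. All 3 groups were apart, and the log2 change was -0.31 after tsu knockdown (SE 0.13, limma adjusted p = 0.212) and -0.16 after Acn knockdown (adjusted p = 0.837). Prosalpha5 had the largest fitted difference of the canonical subunits after tsu knockdown, at -0.43 (95% interval -1.07 to 0.20, adjusted p = 0.361). Its values were 109.6 and 81.2 RPKM in siTSU, 126 and 106 RPKM in siAcn and 164 and 99.4 RPKM in siGFP libraries, and its siGFP replicates differed more than the groups. In siTSU against siAcn cells its difference was -0.29 (adjusted p = 0.675). With a term for the replicate number, which the labels do not tie to a shared batch, the change of Prosalpha5 after tsu knockdown passed (limma adjusted p = 0.0431).

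Prosalpha1 was the lowest canonical gene, at 30.2 and 24.9 RPKM in siTSU, 31.7 and 28.5 RPKM in siAcn and 38.5 and 28.0 RPKM in siGFP libraries. This level is uncertain. The gene has a near-identical copy listed as CG30382, whose RPKM was 1.02 times that of Prosalpha1 in each of the 6 libraries, and their 4 listed introns each had 0 reads in every library. The sum of both was 61.0 and 50.2 RPKM in siTSU, 64.0 and 57.5 RPKM in siAcn and 77.8 and 56.6 RPKM in siGFP libraries. The ratio of CG30382 to Prosalpha1 ran only from 1.0184 to 1.0185 over the libraries, so that their values do not come from separately counted reads. Whether shared reads were counted for both genes or divided between them is not stated. The sum may therefore count the same reads more than once, and neither value is a separate level of its gene. The log2 change of Prosalpha1 was -0.25 after tsu and -0.13 after Acn knockdown, with adjusted p of 0.442 and 0.891 from limma.

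Of the 7 beta ring genes, 0 passed the test, with medians of -0.02 after tsu and -0.08 after Acn knockdown. Prosbeta1, the caspase-like protease, had 169.9 and 138 RPKM in siTSU, 164 and 147 RPKM in siAcn and 172 and 153 RPKM in siGFP libraries. Prosbeta2, the trypsin-like protease, had 186 and 159 RPKM in siTSU, 173 and 147 RPKM in siAcn and 182 and 156 RPKM in siGFP libraries. For both, the difference between replicates exceeded that between groups, with log2 changes of -0.08 and 0.02 after tsu and -0.06 and -0.08 after Acn knockdown. Prosbeta5, the chymotrypsin-like protease and the most abundant of these, had 336 and 264 RPKM in siTSU, 273 and 246 RPKM in siAcn and 281 and 274 RPKM in siGFP libraries. Its siTSU replicates lay on either side of the siGFP libraries, and its log2 change was 0.10 (95% interval -0.30 to 0.50) after tsu and -0.10 (-0.50 to 0.30) after Acn knockdown. In siTSU against siAcn cells it had the largest positive difference of all 35 genes, 0.20 (adjusted p = 0.624).

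Among the other beta subunits, which have no protease site, Prosbeta6 had 242 and 206 RPKM in siTSU, 221 and 205 RPKM in siAcn and 235 and 220.0 RPKM in siGFP libraries, with a log2 change of -0.02 after tsu knockdown. Prosbeta7 was one of the few genes with a positive fitted change after Acn knockdown, at 0.09 (95% interval -0.29 to 0.47). It had 146 and 129 RPKM in siTSU, 158 and 139 RPKM in siAcn and 154 and 126 RPKM in siGFP libraries, and all groups overlapped.

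The 6 ATPase ring genes had medians of 0.02 after tsu and -0.04 after Acn knockdown, and 0 passed the test. Rpt5 separated in the siAcn cells, with 156 and 147 RPKM against 139 and 141 RPKM in siGFP libraries, at a log2 change of 0.11 (95% interval -0.20 to 0.42, adjusted p = 0.867). Its siTSU libraries, at 148 and 134 RPKM, lay on either side of siGFP. Rpt3 had the lowest fitted change of the ring after tsu knockdown, -0.28 (adjusted p = 0.505), from 128 and 99.9 RPKM in siTSU libraries against 166 and 114 RPKM in siGFP libraries, which overlapped. Against siAcn cells its difference was -0.15 (adjusted p = 0.821). Rpt2 had 210.0 and 224 RPKM in siTSU, 218 and 176 RPKM in siAcn and 232 and 193 RPKM in siGFP libraries, and its difference of siTSU from siAcn cells, 0.15, had an adjusted p of 0.748.

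The 12 non-ATPase genes had medians of -0.07 after tsu and -0.10 after Acn knockdown, and 0 passed the test. The base scaffolds Rpn1 and Rpn2 had the highest fitted changes of all 35 genes after tsu knockdown, 0.18 each. Rpn1, the lowest canonical gene after Prosalpha1, had 76.6 and 76.3 RPKM in siTSU, 68.5 and 71.0 RPKM in siAcn and 61.7 and 74.0 RPKM in siGFP libraries. Both siTSU values were above both siGFP values, but by less than the siGFP replicates differed (adjusted p = 0.464). Rpn2 had 256 and 232 RPKM in siTSU, 224 and 217 RPKM in siAcn and 195 and 237 RPKM in siGFP libraries, with overlap of siTSU and siGFP libraries (adjusted p = 0.505).

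Rpn8, the lid partner of the deubiquitinase Rpn11, had 191 and 173 RPKM in siTSU, 164 and 154 RPKM in siAcn and 161 and 172 RPKM in siGFP libraries. Its siTSU libraries were the highest, at a log2 change of 0.13 against siGFP (adjusted p = 0.595) and 0.19 against siAcn cells (adjusted p = 0.559). The ubiquitin receptor Rpn13 and the lid subunits Rpn12 and Rpn6 had the largest negative fitted changes of the canonical genes after Acn knockdown, -0.20, -0.19 and -0.18, with limma adjusted p of 0.841, 0.907 and 0.847. Rpn13 had 106 and 90.6 RPKM in siTSU, 101 and 85.6 RPKM in siAcn and 123 and 93.4 RPKM in siGFP libraries. Rpn6 had 178 and 153 RPKM in siTSU, 182 and 148 RPKM in siAcn and 201 and 172 RPKM in siGFP libraries. Rpn12, with 152 and 119 RPKM in siTSU, 162 and 110.4 RPKM in siAcn and 207 and 112 RPKM in siGFP libraries, had the widest interval of the 35 genes after Acn knockdown, -0.96 to 0.58. In all 3 the groups overlapped, and replicate 1 was higher in each group.

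Rpn10, another ubiquitin receptor, had a log2 change of 0.06 after Acn knockdown (adjusted p = 0.928), and Rpn7, a lid subunit, one of 0.15 in siTSU against siAcn cells (adjusted p = 0.758). Sem1, the smallest lid subunit, was listed at 311 and 235 RPKM in siTSU, 338 and 253 RPKM in siAcn and 332 and 267 RPKM in siGFP libraries. Its log2 changes were -0.14 after tsu knockdown and -0.03 after Acn knockdown, with adjusted p of 0.735 and 0.985 from limma.

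The 3 copies were lower in level than their canonical genes in every library. Prosbeta2R2 lies on the minus strand of chromosome 3R, has 2 annotated introns and encodes a relative of the trypsin-like Prosbeta2. It was at 0.861 and 0.986 RPKM in siTSU, 2.56 and 2.50 RPKM in siAcn and 4.0 and 3.35 RPKM in siGFP libraries, from 18 and 15 reads in siTSU, 63 and 44 in siAcn and 152 and 134 in siGFP libraries. The 3 groups did not overlap, with siTSU lowest and siGFP highest. It fell by 1.28 on the log2(RPKM + 1) scale after tsu knockdown (SE 0.21, 95% interval -1.77 to -0.79, limma adjusted p = 0.0305), a scale that understates changes of low genes, and its mean RPKM in siTSU cells was 0.251 of that in siGFP cells. In bulk RNA, fewer cells with the transcript and less transcript per cell cannot be told apart.

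The call on Prosbeta2R2 needs all 4 libraries compared. The log2 change stayed between -1.38 and -1.18 with any of the 6 libraries left out, but the adjusted p was 0.142 or 0.0790 without siGFP replicate 1 or 2 and 0.107 or 0.183 without siTSU replicate 1 or 2. With 0.1 or 5 RPKM added in place of 1 RPKM the change was -1.88 or -0.55, and both were called. After Acn knockdown the change was -0.40 (95% interval -0.89 to 0.09, adjusted p = 0.761), and the difference of siTSU from siAcn cells was -0.88 (SE 0.21, limma adjusted p = 0.139). Of the neighbouring genes of the annotation, cno had a log2 change of -0.12 after tsu knockdown (limma adjusted p = 0.752), CG1116 one of 0.03 (adjusted p = 0.932) and CG2604 one of 0.07 (adjusted p = 0.745). Whether the region has a part in the change of Prosbeta2R2 was not tested.

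Rpt6R, a copy of the ATPase Rpt6, had 31.4 and 25.5 RPKM in siTSU, 42.5 and 30.7 RPKM in siAcn and 46.4 and 36.1 RPKM in siGFP libraries. Its siTSU libraries lay below its siGFP libraries, with a log2 change of -0.52 (95% interval -1.02 to -0.01, limma adjusted p = 0.196), so that it did not pass in this fit. With a term for the replicate number, which the labels do not tie to a shared batch, Rpt6R passed (limma adjusted p = 0.0121). In siTSU against siAcn cells the difference was -0.34 (adjusted p = 0.505). Rpt3R, a copy of Rpt3, had 24.4 and 23.6 RPKM in siTSU, 27.9 and 23.9 RPKM in siAcn and 28.7 and 19.3 RPKM in siGFP libraries. Both knockdowns lay within its siGFP range, with log2 changes of 0.02 after tsu and 0.13 after Acn knockdown.

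Relative to its canonical gene, Prosbeta2R2 was at 0.464% and 0.622% of Prosbeta2 in siTSU, 1.48% and 1.70% in siAcn and 2.20% and 2.14% in siGFP libraries. The 3 groups were apart in this ratio as well. Rpt6R was at 19.1% and 17.7% of Rpt6 in siTSU, 25.4% and 23.0% in siAcn and 23.2% and 28.2% in siGFP libraries, so that siTSU was lowest and the others overlapped. Rpt3R was at 19.0% and 23.6% of Rpt3 in siTSU, 19.4% and 21.7% in siAcn and 17.3% and 17% in siGFP libraries, higher in every knockdown library. These ratios were not tested, and they also move with the canonical gene. The fitted log2 change after tsu knockdown was -0.28 for Rpt3 and 0.02 for Rpt3R, and after Acn knockdown -0.13 and 0.13.

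**Figure D4:**
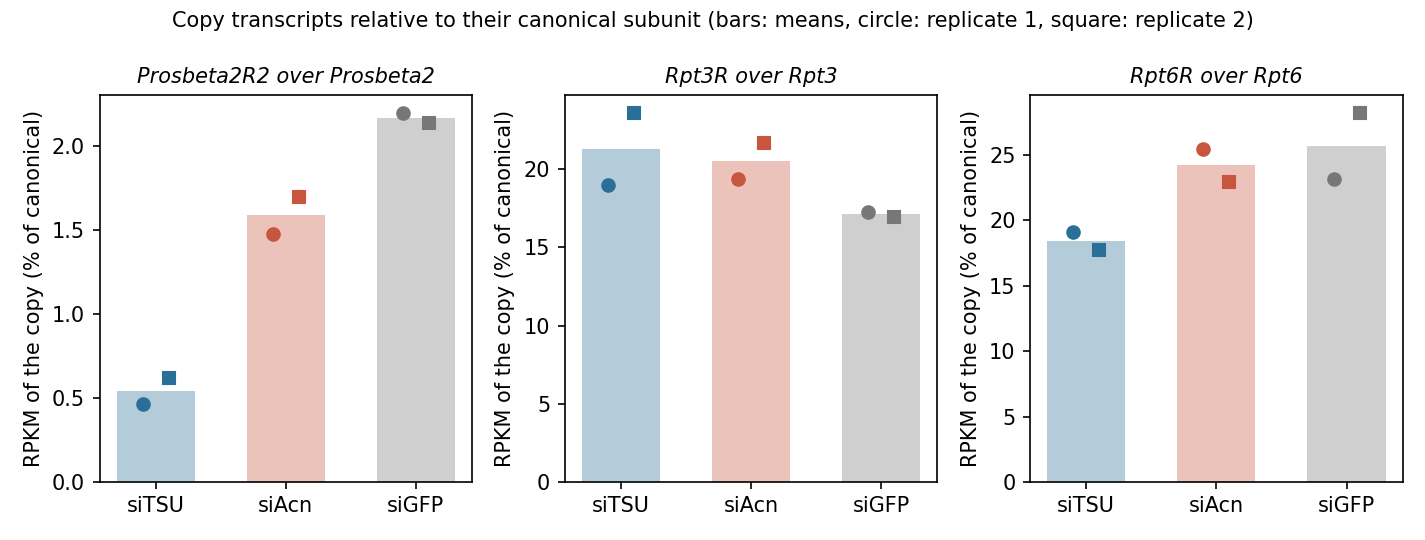
RPKM of each copy as percent of its canonical gene in siTSU, siAcn and siGFP cells, with 1 point per library (circle, replicate 1; square, replicate 2) and bars at the mean of 2 libraries. Prosbeta2R2 is at 0.543% of Prosbeta2 in siTSU against 2.17% in siGFP cells, Rpt6R at 18.4% of Rpt6 against 25.7%, and Rpt3R at 21.3% of Rpt3 against 17.1%.

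The genes have short introns. The table listed 72 introns in 31 of the 35 genes, 49 of them of up to 100 nt, with a median of 67 nt against 102 nt over all listed introns. Rpn7, Rpn12, Rpt1 and Prosbeta3 had none. The longest were in Rpn8, 2960 nt, and Rpn6, 752 nt, and the longest of every other gene was at most 500 nt. Over all genes tested, the median change after tsu knockdown was 0.04 for genes with no listed intron, -0.08 where the longest intron was up to 500 nt and -0.16 where it exceeded 2000 nt. The medians of the proteasome genes were 0.02 for the 4 without and -0.07 for the 29 with introns of up to 500 nt. Rpn6 was at -0.17, and Rpn8, whose longest intron exceeds 2000 nt, was at 0.13, opposite in sign to the median of its class.

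Intron retention was measured as intron RPKM over the RPKM of the gene in the same library, over intervals that reach 35 nt into each flanking exon, so that reads across a boundary can count. With a filter after the study's methods, applied here to every listed intron interval above 10% of its gene's RPKM in any library and to genes above 10 RPKM in siGFP cells, 2848 introns were tested, a set that need not be the study's own, of which 2.77% were called in siTSU, 1.33% in siAcn against siGFP and 0.527% in siTSU against siAcn cells. No intron of a proteasome gene was among those tested. Outside Prosbeta2R2, whose transcript is under 10 RPKM, the highest index of any proteasome intron in any library was 5.91%, and 66 of 72 introns were under 1% in siGFP cells. An intron of Prosbeta2R2 reached 19.4%, but from 1 to 9 reads per library.

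The introns with most reads are small in number. That of Prosalpha7 with 167 nt (dm3 chr2R:5734376-5734612, flanks included, minus strand) had 12 and 2 reads in siTSU, 17 and 8 in siAcn and 42 and 22 in siGFP libraries. Its index was 1.85% and 0.451% in siTSU, 2.01% and 1.41% in siAcn and 2.87% and 1.52% in siGFP libraries, with overlap of all groups. That of Rpn13 with 169 nt (dm3 chr2R:9846869-9847107, minus strand) had 1.0% and 1.61% in siTSU, 3.13% and 4.41% in siAcn and 1.90% and 2.96% in siGFP libraries, from 4 to 20 reads each, and was highest in siAcn and lowest in siTSU cells. The 2960-nt intron of Rpn8 (dm3 chr2R:20287592-20290621, plus strand) was at 0.0437% and 0.0994% in siTSU, 0.0539% and 0.129% in siAcn and 0.107% and 0.165% in siGFP libraries.

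With the 10% filter replaced by a minimum of 20 reads over the 6 libraries, 10516 introns were tested, 10 of them of proteasome genes, and 0 of these 10 were called in any comparison, where 0.209% of all were called in siTSU and 0.0% both in siAcn against siGFP and in siTSU against siAcn cells. At an unadjusted p under 0.05, limma listed 1 of the 10 in siTSU (14.5% of all introns) and 2 in siAcn against siGFP (10.3%), and 3 in siTSU against siAcn cells (12.6%). After tsu knockdown the intron of Rpn13 had a log2 change of index of -0.84 (95% interval -1.87 to 0.18, adjusted p = 0.399) and that of Prosalpha7 one of -1.11 (-2.81 to 0.58, adjusted p = 0.478). The largest difference among the 10 was in the intron of Rpn11 in siAcn against siGFP cells, -2.92 (95% interval -4.71 to -1.13, adjusted p = 0.314), and the largest positive one was in an intron of Rpn9 in the same comparison, 2.02 (0.13 to 3.91, adjusted p = 0.453), both singled out after their values were seen.

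Pooled over the introns of each gene, 30 genes gave a value, and their introns held 71 and 38 reads in siTSU, 106 and 73 in siAcn and 182 and 177 in siGFP libraries. Summed over the 30 genes the index was 0.199% and 0.164% in siTSU, 0.259% and 0.281% in siAcn and 0.275% and 0.283% in siGFP libraries. It was lowest in siTSU cells, while siAcn and siGFP libraries overlapped, and with 2 libraries per group this was not tested. The median over all 5210 genes with a pooled value was also below siGFP in each knockdown library, with 0.744% and 0.578% in siTSU, 0.838% and 0.696% in siAcn and 0.905% and 0.893% in siGFP libraries. The proteasome median was 0.159% and 0.0951% in siTSU, 0.171% and 0.199% in siAcn and 0.172% and 0.224% in siGFP libraries, below that of all genes in each. In siGFP cells, 26 of 30 genes were under the median of all genes, and 25 were under that of genes whose longest pooled intron was up to 500 nt. The median ratio over the 28 genes with siGFP intron reads was 0.863 in siTSU and 0.744 in siAcn relative to siGFP cells, against 0.780 and 0.868 over all genes. The siTSU ratio was 0.479 without siTSU replicate 1 and 0.508 without siTSU replicate 2, so that it is not fixed by these reads. Genes with no intron read numbered 9 and 12 of 30 in siTSU and 7 and 10 in siAcn against 7 and 4 in siGFP libraries, which are the deepest.

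**Figure D5:**
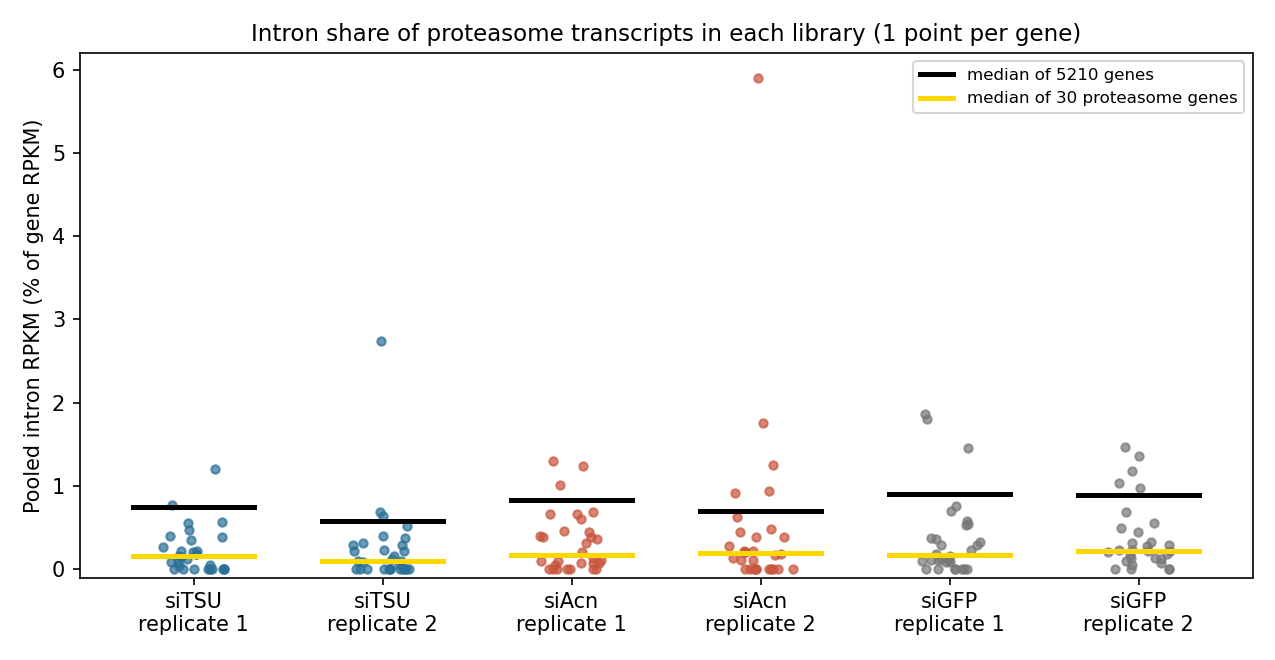
Intron RPKM pooled over the introns of a gene, as percent of the gene's RPKM, in each of the 6 libraries, with 1 point per proteasome gene, yellow lines at the median of the 30 proteasome genes and black lines at the median of 5210 genes. The yellow lines are at or under 0.224% and the black ones at or above 0.578%, and the point at 5.91% is Rpt6R with 3 intron reads.

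Of 22 partners of the proteasome (activators, shuttle factors, the segregase and its cofactors, ubiquitin genes, assembly and transcription factors), all were listed and 0 passed the test in any comparison. Their median change was 0.08 after tsu knockdown, with 15 above 0, and -0.02 after Acn knockdown, with 11 above 0. At an unadjusted p under 0.05, limma listed 2 as higher and 2 as lower after tsu knockdown, where 8.07% and 16.4% of all genes were. TER94, the segregase that extracts ubiquitinated proteins, had 511 and 464 RPKM in siTSU, 372 and 362 RPKM in siAcn and 356 and 318 RPKM in siGFP libraries, with siTSU highest, at a log2 change of 0.53 (95% interval 0.18 to 0.89, adjusted p = 0.0960). REG, an activator that binds the core particle, had 374 and 436 RPKM in siTSU, 244 and 327 RPKM in siAcn and 246 and 318 RPKM in siGFP libraries, also at 0.53 (adjusted p = 0.190). The ubiquitin gene Ubi-p5E had 134 and 189 RPKM in siTSU, 112 and 184 RPKM in siAcn and 109 and 124 RPKM in siGFP libraries, at 0.46 (adjusted p = 0.341), and its replicates differed widely.

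The lowest fitted change among the partners was that of CG8858, the fly relative of the yeast adaptor Ecm29, with 16.8 and 14.2 RPKM in siTSU, 20.1 and 18.5 RPKM in siAcn and 22.0 and 21.3 RPKM in siGFP libraries, at -0.46 after tsu knockdown (adjusted p = 0.105). The transcription factor cnc, which is known to activate proteasome genes in flies and was singled out here after its values were seen, had 48.9 and 47.6 RPKM in siTSU, 59.9 and 60.3 RPKM in siAcn and 68.9 and 57.4 RPKM in siGFP libraries. Its siTSU libraries were the lowest, at -0.38 (95% interval -0.70 to -0.05, adjusted p = 0.153). The assembly factor Pomp had a slightly lower fitted change after tsu knockdown, -0.39 (limma adjusted p = 0.354). For maf-S, another transcription factor of the list, the change was positive, 0.15 (limma adjusted p = 0.602).

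Other large complexes also had no call. The 8 genes of the CCT chaperonin had a median change of 0.16 after tsu knockdown, all 8 above 0, and the 8 of the COP9 signalosome, which is related to the lid, one of -0.00, with 4 above 0. The 87 cytosolic ribosomal protein genes had a median of 0.05, with 55 above 0. After Acn knockdown the medians were 0.05, -0.15 and 0.01 in that order.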

How the data were processed

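PolyA libraries of siTSU, siAcn and siGFP OSCs (2 biological replicates each) were grouped by their titles, and p-values measure the spread between these samples. The authors mapped the high-quality part of each read to the genome, transcripts and introns, kept unique reads and deposited RPKM for 8335 genes and 60779 introns (dm3). The submitters' processing notes name Bowtie and GSNAP. Intron RPKM times interval length gave whole reads (tolerance 0.1 read), hence the depth behind each scale, which limits introns most. Of 49398 introns with an annotated gene, 99.6% match an annotated length once 35 nt per side are removed. The BDGP6 annotation gave names, identifiers, lengths and neighbours only.

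Gene values were log2(RPKM + 1), for genes averaging 1 RPKM or more. Intron values were the log2 ratio of intron to gene RPKM, each plus 0.1 RPKM. Both were fitted over the 3 groups together by limma (version 3.58.1, R version 4.3.3, functions lmFit and eBayes, trend on), calls had a Benjamini-Hochberg adjusted p below 0.05, and the script was tested on simulated data. Other steps used Python 3.11.15, numpy 2.4.6, pandas 2.3.3 and matplotlib 3.10.9.

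The members, lists and naming rule were chosen with earlier results of these data known. Named were members past the test, the 4 largest positive and negative changes per comparison, the proteases, the copies, the 3 highest and 3 lowest, Sem1, the introns with at least 20 siGFP reads (3) and the 4 partners with the largest change. Alternatives varied the pseudocount, filters, scaling, groups in the fit and trend, used a replicate block, added Sem1 and left out each library.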

Additional observations from a re-analysis of the deposited data

How the results depend on the processing

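Proteasome genes called after tsu knockdown numbered 1, and 0 with a minimum mean of 10 RPKM, which leaves Prosbeta2R2 untested. Leaving out each of the 6 libraries in turn gave 0 to 1, with 0 without siGFP replicate 1 or 2 or siTSU replicate 1 or 2, each of which leaves an arm with 1 library that is assumed to vary like the others. The count after Acn knockdown was 0 in each alternative run.

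With the replicate block, 3 proteasome genes were called as lower after tsu knockdown, Prosbeta2R2 (-1.28, adjusted p = 0.00370), Rpt6R (-0.52, adjusted p = 0.0121) and Prosalpha5 (-0.43, adjusted p = 0.0431), and 1 in siTSU against siAcn cells, Prosbeta2R2 (-0.88, adjusted p = 0.0342). The block changed no other proteasome call. Same-numbered libraries deviated together across genes (r of 0.44 to 0.63), but the labels state no shared batch. Over all genes the block gave 1859 calls after tsu and 297 after Acn knockdown and 664 between the knockdowns, in place of 271, 5 and 74. Leaving out libraries gave 6 to 369, 0 to 3 and 1 to 5, and a minimum of 10 RPKM gave 129, 2 and 18. After Acn knockdown there were 8 calls with quantile normalization, 10 without a trend and 3 with 2 groups fitted. Between the knockdowns there were 41 with 0.1 RPKM added, 40 without a filter and 5 with 2 groups fitted.

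The median intron share relative to siGFP, 0.863 for siTSU, was 0.526 over genes with at least 20 siGFP intron reads and 0.796 over same-numbered pairs (replicate block), and 0.479 to 0.796 with 1 library left out. The siAcn value, 0.744, was 1.01 over same-numbered pairs and 0.697 to 0.917 with 1 library left out. The cause was not tested.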
